A study of Canis lupus familiaris with 51 samples.

Results

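DEPDC1, DLGAP5, SHCBP1, ARHGEF39 and MPP4 are 5 genes chosen by their large rise in log2 level in the undifferentiated reference samples of a study of canine cutaneous mast cell tumors (MCTs). They were read by 6 of the 43603 probes of an Agilent canine array, 2 probes for SHCBP1 and 1 for each of the others, and the whole array carries 35591 gene or transcript names. DEPDC1, DLGAP5, SHCBP1 and MPP4 probes carry those names in the scanner files. No probe is named ARHGEF39: 1 probe carries the gene number of that gene in RefSeq, and it was used here. Since the rise in the reference samples chose the genes, their levels there are given as a description, without a test.

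The data are one-color arrays of 51 tumors, 1 array for each. All 51 samples are naturally occurring tumors of pet dogs without a label for treatment or histological class, 30 from females, 19 from males and 2 without a sex, and the dogs were 3 to 14 years old. The study's list of reference samples names 13 differentiated and 4 undifferentiated MCTs that match a sample title. A further sample, LM0, can be the remaining undifferentiated name of the list only by elimination. The remaining 33 tumors did not enter the choice of the genes. Each main test below used these 33, or those of them with a sex or age label. Some alternatives given at the end also used the reference samples. The samples are biopsies, so that fewer cells of a type and less RNA per cell cannot be told apart. All 8 measured mast cell markers, among them KIT, MS4A2 and FCER1A, were well above background in all 33 tumors, with mean log2 levels between 11.2 and 16.7.

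CCNB2 encodes cyclin B2, which works with the kinase CDK1 to bring cells into mitosis, so its RNA is abundant where many cells divide. DLGAP5 is a microtubule-binding protein of the mitotic spindle that stabilizes the fibers attached to chromosomes. SHCBP1 binds the adaptor SHC1 and is found at the midbody of dividing cells, and DEPDC1 is a DEP domain protein whose RNA is known to be raised in proliferating cells. ARHGEF39 is a guanine nucleotide exchange factor, which turns on small GTPases that organize the actin skeleton. MPP4 is a scaffold protein of the membrane-associated guanylate kinase (MAGUK) family, best known from the synapses of retinal photoreceptors. The question was how far each gene followed CCNB2 in the tumors that had no part in its choice.

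The probe sequences are shown because each level below is the brightness of these letters, 60 bases per probe, and because a gene is represented by them alone. They are printed 5′ to 3′ as the scanner files hold them, in lower case, with no base marked. The last line is the probe of a retinal cDNA that lies near MPP4 and followed it closely, described further on.
DEPDC1: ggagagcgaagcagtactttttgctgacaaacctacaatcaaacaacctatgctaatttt
DLGAP5: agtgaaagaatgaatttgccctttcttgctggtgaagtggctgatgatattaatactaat
SHCBP1 probe a: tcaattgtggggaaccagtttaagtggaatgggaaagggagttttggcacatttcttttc
SHCBP1 probe b: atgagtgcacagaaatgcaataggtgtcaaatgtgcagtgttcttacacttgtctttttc
ARHGEF39: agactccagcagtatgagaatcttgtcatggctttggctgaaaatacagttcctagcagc
MPP4: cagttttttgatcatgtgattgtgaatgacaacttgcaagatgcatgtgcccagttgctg
Retinal cDNA near MPP4: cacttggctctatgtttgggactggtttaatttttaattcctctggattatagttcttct

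The scanner files place the DEPDC1 probe at chr6:79931686-79931745 on the plus strand and the DLGAP5 probe at chr8:34034522-34034581 on the minus strand. Probe a of SHCBP1 lies at chr15:11500727-11500786 and probe b at chr15:11501151-11501210, both on the plus strand. The MPP4 probe lies at chr37:13711616-13711675 on the minus strand. The ARHGEF39 probe is placed at chr11:55227873-55228492 on the minus strand, a span of 620 bases for 60 letters. The genome build is not given in the sources used here, and the files do not say which exon a probe reads. The GC content of the 6 probes was between 35% and 45%.

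Levels are log2 intensities after quantile normalization, and a difference of 1 is a 2-fold change in intensity. Levels of different probes cannot be set against each other. A spot is called well above background by the scanner software when its signal clearly exceeds that of the surroundings. DEPDC1 was well above background in 18 of the 51 tumors, ARHGEF39 in 36, SHCBP1 in 37 by probe a and 46 by probe b, MPP4 in 43 and DLGAP5 in 49. Levels of spots that were not are set largely by the background, which concerns DEPDC1 most.

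In the undifferentiated reference samples, DEPDC1 had a log2 level of 7.68 in T9, 7.29 in T57, 5.99 in T73 and 7.38 in T90, and 8.81 in LM0. In the 13 differentiated reference samples it ranged from 2.06 to 5.19, with a median of 2.33, and only 2 of the 13 were well above background. The 33 other tumors ranged from 2.06 in T83 to 7.26 in T114, with a median of 4.00. The 4 undifferentiated samples lay above all 13 differentiated ones, and 3 of the 33 other tumors reached the lowest of these 4.

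DLGAP5 was at 9.38 in T9, 9.51 in T57, 9.20 in T73, 9.88 in T90 and 10.55 in LM0. The 13 differentiated samples ranged from 4.44 to 7.18 (median 6.09), and the 33 other tumors from 4.64 in T102 to 9.30 in T114 (median 6.89). Among the 33, T114 alone reached the lowest of the 4 undifferentiated samples, while 14 lay above all 13 differentiated ones.

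SHCBP1 was read by 2 probes, and by both of them the 4 undifferentiated samples lay above the 13 differentiated ones. By probe b, the brighter one, it was at 9.35 in T9, 9.06 in T57, 8.38 in T73, 8.62 in T90 and 9.08 in LM0. The 13 differentiated samples ranged from 3.36 to 7.41 (median 5.33) and the 33 other tumors from 3.74 in T102 to 9.78 in T49 (median 6.33). By probe b T49 lay above every undifferentiated reference sample, and by probe a, with 8.52, just below T9 with 8.54. Probe b was brighter than probe a by a median of 1.14 over the 33 tumors (0.46 to 2.19), and the levels of both correlated with an r of 0.972.

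ARHGEF39 was at 6.17 in T9, 6.44 in T57, 6.22 in T73 and 7.03 in T90, and at 8.07 in LM0. The 13 differentiated samples stayed between 3.28 and 4.51 (median 3.91). The 33 other tumors spanned 3.05 in T14 to 6.09 in T49 (median 4.47), and none of them reached the lowest of the 4.

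MPP4 was at 10.56 in T9, 9.60 in T73, 9.17 in T90 and 7.78 in T57, and at 9.02 in LM0. The 13 differentiated samples ranged from 3.08 to 6.27 (median 5.49). The 33 other tumors spanned 3.63 in T102 to 10.58 in T132 (median 5.73), and T102 was not well above background. T132 was at the level of T9, and T80, T49, T107 and T106 followed with 8.34, 8.29, 8.29 and 7.92. These 5 tumors were the only ones of the 33 at or above T57.

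**Figure D1:**
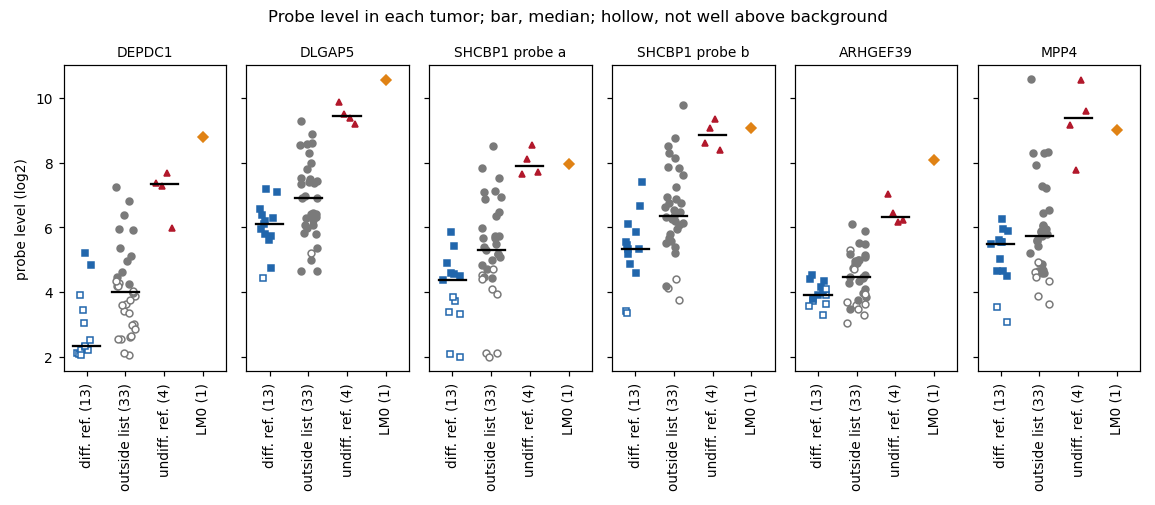
Log2 level of each member probe (vertical axis) in 13 differentiated reference samples, 33 tumors outside the study's list, 4 undifferentiated reference samples matched by name and LM0. Each point is 1 tumor, bars are medians and hollow points were not well above background. The 4 undifferentiated samples lie above all 13 differentiated ones for every probe. The genes were chosen for a large rise in the undifferentiated reference samples, so this separation is no independent result.

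In the 33 tumors, DLGAP5, SHCBP1, DEPDC1 and ARHGEF39 rose with CCNB2, with ARHGEF39 at the lowest slope, and MPP4 did not pass the test. The CCNB2 level is the mean of its 3 probes, each centred on its own mean, and it was spread over 4.88 log2 units without a gap larger than 13.2% of that range. Its probes a, b and c were well above background in 28, 30 and 33 of the 33 tumors. In T12, T102 and T113, the tumors lowest in CCNB2, only probe c was, so the low end of the range rests partly on background. The slope is the change in log2 level of a probe per log2 unit of CCNB2, fitted by limma over all 43600 other probes. With Benjamini-Hochberg adjustment and a threshold of 0.01, limma called 1189 of these (2.73%), and 719 of them rose with CCNB2 (1.65%). Of the 5 genes 4 were called, all rising.

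DLGAP5 rose by 0.92 per unit of CCNB2 (SE 0.048, adjusted p = 8.41e-16). Both SHCBP1 probes rose slightly more steeply, probe a by 1.13 (SE 0.064, adjusted p = 8.17e-15) and probe b by 1.02 (SE 0.056, adjusted p = 2.96e-15). DEPDC1 rose by 0.91 (SE 0.084, adjusted p = 1.42e-09). ARHGEF39 rose by 0.36 (SE 0.083, adjusted p = 0.00562). Its call was lost with scan session in the fit (adjusted p = 0.0517) and with sex and age in the fit (adjusted p = 0.0425), with slopes of 0.37 and 0.26. MPP4 had a slope of 0.52 with an SE of 0.18 (adjusted p = 0.0746), larger than that of ARHGEF39 but with more than double its error. The size of a slope depended on the background correction for probes near background. With normexp correction it was 0.34 for DEPDC1 (adjusted p = 6.64e-07), 0.60 for SHCBP1 probe a (adjusted p = 3.25e-11) and 0.18 for ARHGEF39 (adjusted p = 0.000695), all still called, while DLGAP5 and SHCBP1 probe b moved less, to 0.84 and 0.86.

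The correlation with CCNB2 over the 33 tumors ordered the genes in another way than the slope, with MPP4 last. DLGAP5 had a Pearson r of 0.961 (Spearman 0.957), probe b of SHCBP1 0.956 (Spearman 0.956), probe a 0.952 (Spearman 0.945) and DEPDC1 0.886 (Spearman 0.884), each with p = 1e-05 for r and for Spearman's coefficient, the smallest that 100000 two-sided permutations can give. ARHGEF39 followed with an r of 0.612 (permutation p = 0.00014) and a Spearman coefficient of 0.6 (permutation p = 0.00024). MPP4 had an r of 0.440 (permutation p = 0.00987) and a Spearman coefficient of 0.374 (permutation p = 0.0317). CCNB2 thus accounted for 92.3% of the variance of DLGAP5, for 37.4% of that of ARHGEF39 and for 19.4% of that of MPP4. These were the relations of 6 probes, and their p-values are not adjusted for that number.

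Without T113 and T102, the 2 tumors farthest from the median CCNB2 level, the r of MPP4 fell to 0.354 (permutation p = 0.0507), so that its correlation rests in part on these tumors. It was 0.304 in the 27 tumors in which MPP4 was well above background (permutation p = 0.122). With the authors' normalized table, which has a value in 28 tumors, it was 0.573 (permutation p = 0.00141). Of the spots blank in that table, 99.9995% were not found by the scanner software, while the main levels kept such spots. Thus the r of MPP4 depends on how spots that were not found are treated. Without T113 and T102, the other genes kept an r of 0.641 (ARHGEF39) to 0.954 (DLGAP5). In the 11 tumors with DEPDC1 well above background its r was 0.857. With levels centred within each of the 9 scan sessions, r was 0.974 for DLGAP5, 0.953 for probe b of SHCBP1, 0.912 for DEPDC1, 0.590 for ARHGEF39 and 0.410 for MPP4. Only session 5 held 6 of the tumors, and within it r was 0.994 for DLGAP5 but 0.611 for ARHGEF39 (exact permutation p = 0.188) and 0.548 for MPP4 (exact permutation p = 0.264).

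**Figure D2:**
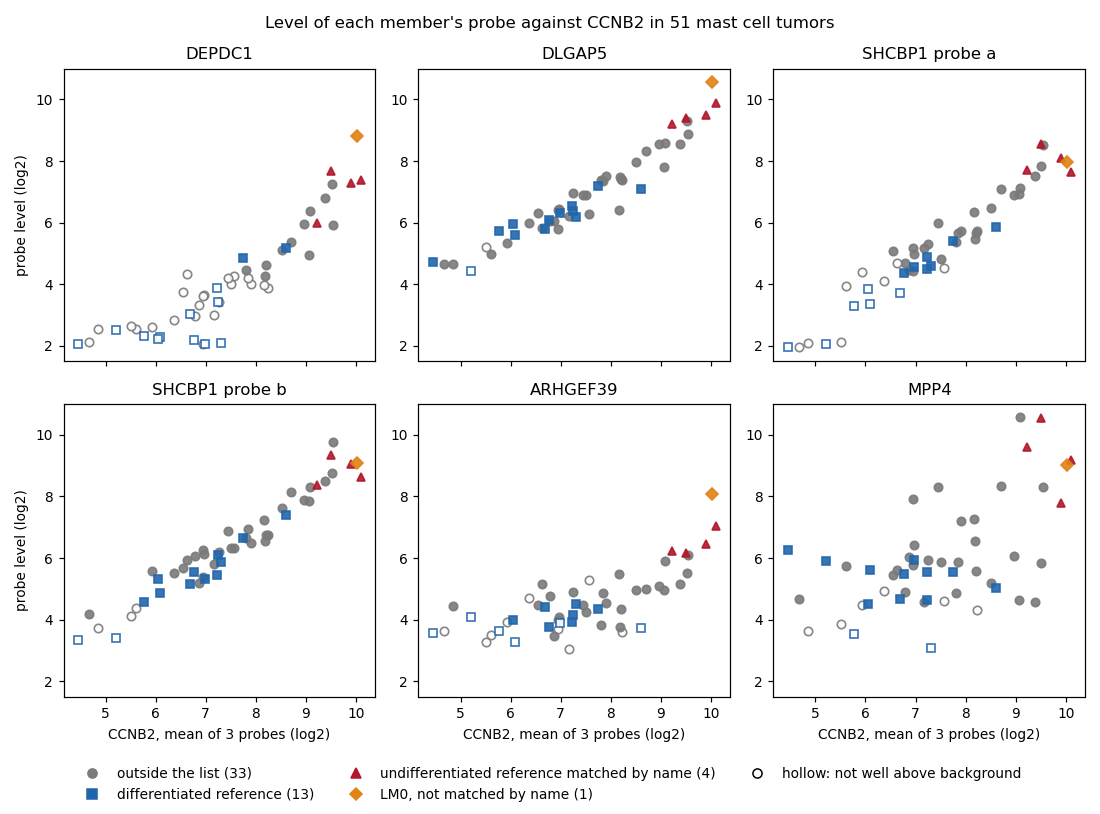
Log2 level of each member probe (vertical axes) against the mean log2 level of the 3 CCNB2 probes (horizontal axes) in 51 tumors, each point a tumor, with hollow points not well above background. DLGAP5 and SHCBP1 follow CCNB2 closely, DEPDC1 flattens where it is not well above background, and MPP4 spreads from under 5 to over 10 among the tumors of highest CCNB2.

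Whether MPP4 follows CCNB2 less closely than the others was tested directly, by permuting the tumors against the difference of the standardized levels. Its r was lower than that of DLGAP5 by 0.520 (permutation p = 0.00311), than that of SHCBP1 probe b by 0.515 (permutation p = 0.00202) and than that of DEPDC1 by 0.446 (permutation p = 0.0177). The difference from ARHGEF39 was 0.172 and did not pass (permutation p = 0.377), and with the authors' table it was 0.038 (permutation p = 0.857). These are 4 comparisons with unadjusted p-values. The difference from DEPDC1 did not pass with the authors' normalized table (0.314, permutation p = 0.0965, 28 tumors) or in the 11 tumors with both probes well above background (0.615, permutation p = 0.125). With the authors' table the other differences were smaller as well. They were 0.384 for DLGAP5 (permutation p = 0.0312, 28 tumors) and 0.429 for SHCBP1 probe b (permutation p = 0.0154, 27 tumors).

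Against the array as a whole, the genes stood at different places. Over all 43600 probes the median r with CCNB2 was -0.06. Only 8 probes had a higher r than DLGAP5, 13 a higher one than probe b of SHCBP1 and 65 (0.149%) a higher one than DEPDC1. For ARHGEF39 it was 595 probes (1.36%), and for MPP4 2308 (5.29%).

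**Figure D3:**
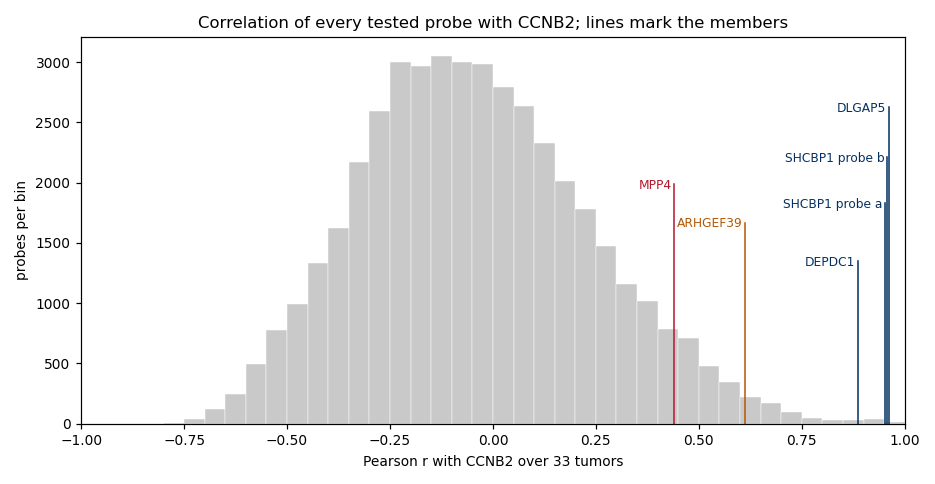
Number of probes (vertical axis) by Pearson r with CCNB2 over 33 tumors (horizontal axis, bins of 0.05), with lines at the r of each member probe. DLGAP5, SHCBP1 and DEPDC1 lie at the far right edge of the distribution, ARHGEF39 at 0.612 and MPP4 at 0.440 on its shoulder.

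The tumors themselves show the difference. Ranked among the 33 from highest to lowest, a tumor's place for DLGAP5 differed from its place for CCNB2 by a median of 1 and at most 7. For MPP4 the median gap was 7 and the largest 25. T115 had rank 3 for CCNB2 and rank 28 for MPP4, with a log2 level of 4.59. T114, T77 and T47 had ranks 2, 5 and 9 for CCNB2 and ranks 15, 26 and 31 for MPP4. T107 and T106, in turn, had ranks 18 and 23 for CCNB2 but ranks 3 and 5 for MPP4. Of the 10 tumors highest in CCNB2, 9 were among the 10 highest in DEPDC1, 8 each in DLGAP5 and SHCBP1, 7 in ARHGEF39 and 4 in MPP4. T132, T80 and T49 were high in both, at ranks 4, 7 and 1 for CCNB2 and ranks 1, 2 and 4 for MPP4.

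Among themselves, DEPDC1, DLGAP5 and SHCBP1 probe b correlated with an r of 0.902 to 0.942. ARHGEF39 had an r of 0.719 with SHCBP1 probe b, 0.694 with DEPDC1 and 0.599 with DLGAP5. MPP4 had an r between 0.410 (DEPDC1) and 0.533 (SHCBP1 probe a) with the others. After the part that follows CCNB2 was taken out of each level, DEPDC1 and DLGAP5 still correlated with an r of 0.544, ARHGEF39 and SHCBP1 with 0.578 by probe b but 0.263 by probe a, DEPDC1 and SHCBP1 with 0.402 by probe b and 0.141 by probe a, and MPP4 with 0.0485 (DEPDC1) to 0.415 (SHCBP1 probe a). These correlations share arrays and are given as a description.

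**Figure D4:**
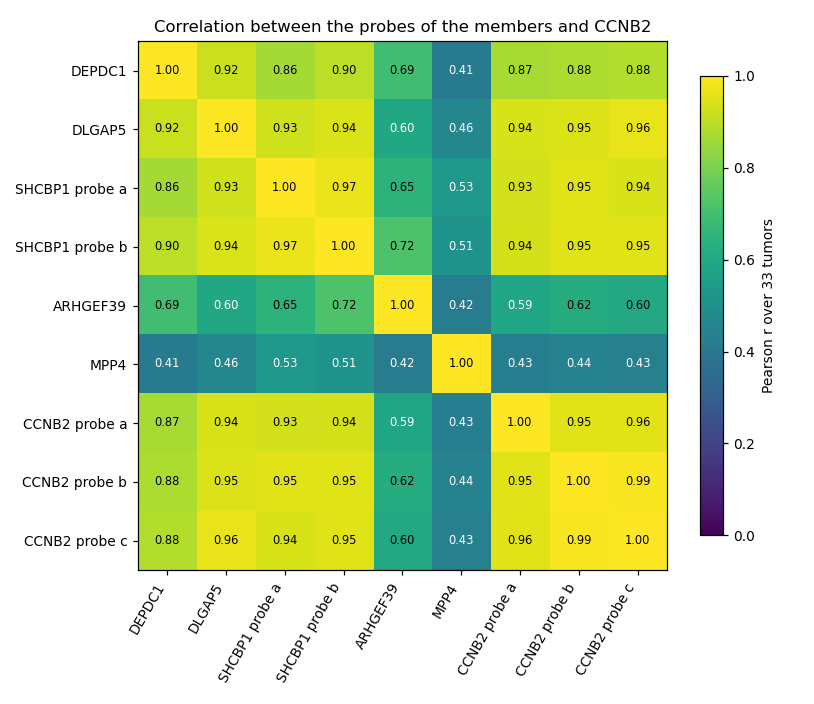
Pearson r between the probes of the 5 genes and the 3 CCNB2 probes over 33 tumors, as colors and values (rows and columns are probes). DEPDC1, DLGAP5 and SHCBP1 form a block with CCNB2 at 0.864 and above, and the row of MPP4 is the lowest, at 0.410 to 0.533.

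The genes with the closest patterns were ranked among the probes that at least 17 of the 33 tumors held well above background, by r with the brightest probe of each gene and over gene symbols known to RefSeq. For DLGAP5 these were CCNA2 (0.973), the cyclin of S phase and early mitosis, the spindle motor KIF11 (0.962), CKAP2L (0.956), the kinetochore protein NUF2 (0.954) and the spindle assembly factor TPX2 (0.954). SHCBP1 was closest to CCNA2 (0.968), NUF2 (0.968), SPAG5 (0.963), ECT2 (0.949) and the checkpoint kinase BUB1B (0.948). A brighter probe of ECT2 had an r of -0.04 with SHCBP1, so the ECT2 probes disagree. DEPDC1 was closest to CCNA2 (0.940), TPX2 (0.928), PBK (0.924), SKA3 (0.918) and DIAPH3 (0.916). A probe under the older name of CDK1, CDC2, which RefSeq's table does not list, had an r of 0.980 with SHCBP1 and of 0.959 with DLGAP5.

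ARHGEF39 had no named gene as close as these. Its nearest were CDCA2 (0.798), the chromosome motor KIF4A (0.780), MCM3 (0.767) of the replicative helicase, UHRF1 (0.747) and the kinetochore protein KNL1 (0.745). MPP4 was nearest to the nuclear export receptor XPO5 (0.768), RPS19BP1 (0.759), the proteasome subunit PSMD8 (0.757), GHITM (0.725) and the aquaporin AQP11 (0.707), and a probe named MRPS6, not matched to a listed symbol, had an r of 0.785 with it. With CCNB2, XPO5 had an r of 0.257, RPS19BP1 0.351, AQP11 0.594, PSMD8 0.653 and GHITM 0.669, against 0.440 for MPP4 itself. An r over 0.6 with MPP4 was reached by 60 of 29817 probes, with ARHGEF39 by 230, with SHCBP1 by 544, with DEPDC1 by 607 and with DLGAP5 by 688.

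The mitosis and replication lists place these patterns. In every gene list, each gene was read only by its probe of highest mean level. Of 53 mitosis genes 39 rose with CCNB2 and 0 fell, against 719 of all 43600 probes rising (1.65%). Their median slope was 0.53, against a median of -0.02 over all probes. Of 35 DNA replication genes 18 rose and 0 fell, with a median slope of 0.25. The median r with the mitosis genes was 0.843 for SHCBP1, 0.842 for DEPDC1, 0.823 for DLGAP5, 0.584 for ARHGEF39 and 0.418 for MPP4. With the replication genes it was 0.681 for DEPDC1, 0.643 for SHCBP1, 0.590 for ARHGEF39, 0.583 for DLGAP5 and 0.316 for MPP4. ARHGEF39 thus had about the same median r with both lists, while the other 4 had a lower one with the replication genes, and the difference was not tested. In the mitosis list DLGAP5 had its highest r with CCNA2 and its lowest with NCAPH (-0.06), and MPP4 its highest with RACGAP1 (0.580) and its lowest with UBE2C (-0.30). In the replication list the highest were RRM2 for DLGAP5 (0.904) and ORC6 for MPP4 (0.559), and POLA1 was the lowest for both (-0.45 and -0.21).

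Of 6 spindle proteins known to work with DLGAP5, 4 rose with CCNB2, against 1.65% of all probes. TPX2 had a slope of 0.52 (adjusted p = 3.71e-12), AURKA, the kinase that phosphorylates DLGAP5, 0.33 (adjusted p = 0.00122), KIF11 0.96 (adjusted p = 8.41e-16) and the GTPase RAN 0.14 (adjusted p = 0.00024). The microtubule polymerase CKAP5 had a slope of 0.02 (adjusted p = 0.742) and the import receptor KPNB1 -0.05 (adjusted p = 0.333). Of 10 genes of the central spindle and cytokinesis, the site at which SHCBP1 is found, 7 rose. There DLGAP5 had an r of 0.936 with RACGAP1 and -0.02 with KIF23. ECT2 entered that list by its brightest probe, with an r of -0.04 with SHCBP1, against 0.949 for another ECT2 probe. The list values thus depend on the probe taken.

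Relatives of the 5 genes by sequence or name mostly did not pass. Of 4 other genes of the DEP domain list, DEPDC1B, the paralog of DEPDC1, rose with a slope of 0.94 (adjusted p = 5.04e-09), while DEPDC5, DEPTOR and DEPDC7 did not pass (slopes of -0.13, -0.21 and 0.23). Neither DLGAP3 (slope 0.04) nor DLGAP4 (slope -0.01), the relatives of DLGAP5, passed. The 5 relatives or partners of SHCBP1 measured, SHCBP1L, SHC1, SHC2, SHC3 and SHC4, had slopes between -0.07 and 0.39, none of them called, and SHCBP1L was not well above background in any of the 33 tumors. Of 13 other ARHGEF genes 0 passed (median slope -0.04), and their r with ARHGEF39 lay between -0.29 (ARHGEF16) and 0.26 (ARHGEF11). With MPP4 it lay between -0.39 (ARHGEF12) and 0.25 (ARHGEF11), and with DLGAP5 between -0.45 (ARHGEF6) and 0.48 (ARHGEF7).

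Of 9 MAGUK genes related to MPP4, MPP6 alone rose with CCNB2 (slope 0.46, adjusted p = 0.00294). MPP6 had an r of 0.635 with DLGAP5 and -0.02 with MPP4. The MAGUK genes had a median r of -0.02 with MPP4, from -0.64 for CASK to 0.183 for DLG5, and the lowest with DLGAP5 was MPP2 (-0.36). Of the photoreceptor and neuron genes, 21 were measured, 10 of them well above background in at least 17 of the 33 tumors. The median r of all 21 with MPP4 was -0.08, so it rests in part on levels set by the background. CRX, RCVRN, GNAT1 and PRPH2, which define photoreceptors, were not well above background in any of the 33 tumors. The highest r with MPP4 was that of SAG, the rod arrestin (0.436), and the lowest that of CRX (-0.51). With DLGAP5 they were UCHL1 (0.678) and ENO2 (-0.36). TUBB3 was the 1 gene of this list called with CCNB2 (slope 0.25, adjusted p = 0.00272).

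The MPP4 probe had a close companion on its own chromosome. Of 63 probes of other names within 1 Mb, the median r with MPP4 was 0.02, but a probe 13.6 kb away, at chr37:13725237-13725296 and also on the minus strand, had an r of 0.909. The files describe it as a cDNA clone from a canine retinal library, and it carries no gene name. This was the highest r of any probe ranked for MPP4, while a probe without a gene name 14.1 kb to the other side had an r of 0.272. It was 0.919 over all 51 tumors and 0.894 once CCNB2 was taken out of both. In the 21 of the 33 tumors with both probes well above background it was 0.957.

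Its log2 level ranged from 1.99 to 9.86 over the 33 tumors (median 4.93), and T132, with 9.86, was highest in it as in MPP4. T49 and T107 were at 7.91 each, T80 at 7.87 and T106 at 7.70. Among the undifferentiated reference samples it was at 9.47 in T73, 8.27 in T90, 8.20 in T9 and 7.30 in T57, and at 7.80 in LM0. Its slope on CCNB2 was 0.53 (SE 0.23, adjusted p = 0.155), and its r with CCNB2 0.372, so that it was not called either. Thus a second set of letters from the same stretch of the chromosome gave nearly the same order of tumors as the MPP4 probe. Whether both read the same transcript was not tested.

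**Figure D5:**
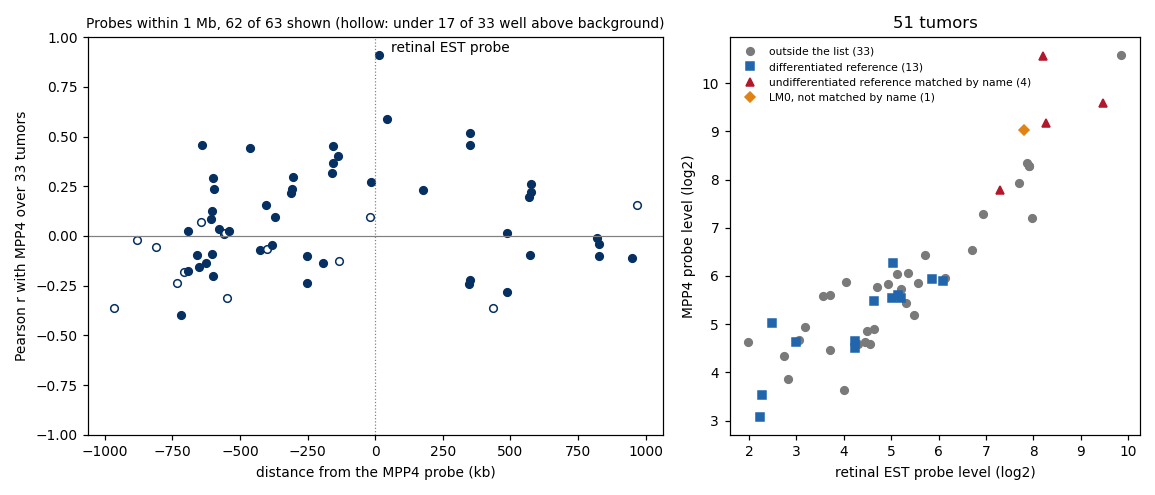
Left, Pearson r with MPP4 over 33 tumors (vertical axis) of probes within 1 Mb, without 1 probe that is not reported, by distance from the MPP4 probe in kb (horizontal axis), with hollow points for probes well above background in fewer than 17 tumors. Right, log2 level of MPP4 (vertical axis) against that of the retinal EST probe (horizontal axis) in 51 tumors. The EST probe at 13.6 kb has the highest r, 0.909.

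Within 1 Mb of SHCBP1, the replication gene ORC6 at a distance of 68.7 kb had an r of 0.900 and rose with CCNB2 (adjusted p = 1.96e-08), against a median r of 0.06 over 52 probes. Within 1 Mb of DLGAP5, the closest was a probe described as cyclin-dependent kinase inhibitor 3, a phosphatase that acts on cyclin-dependent kinases, with an r of 0.844 at 644.1 kb. DEPDC1 had no neighbor above 0.562 (WLS), and ARHGEF39 none above 0.672, a probe without a name.

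Markers of other cell types moved with CCNB2 in part. Of 6 granulocyte markers 2 rose, against 1.65% of all probes. They were S100A8 (slope 1.52, adjusted p = 0.00179) and S100A9 (slope 1.69, adjusted p = 0.000499). ELANE, of the same list, was well above background in 10 of the 33 tumors. Of 7 keratinocyte markers 0 passed, with a median slope of 1.73 and KRT5 well above background in 28 tumors. None of 10 fibroblast, 7 endothelial, 8 T cell, 8 macrophage and 8 mast cell markers passed, with median slopes of -0.005, -0.03, 0.01, -0.10 and -0.20. With DLGAP5, fibroblast markers had an r of -0.47 (FBLN1) to 0.142 (PDGFRA) and endothelial ones -0.12 (ESAM) to 0.282 (CDH5). T cell markers had -0.06 (CD2) to 0.505 (CD4) and macrophage ones -0.30 (CSF1R) to 0.591 (CD14). With MPP4 these ranges were -0.60 (FBLN1) to 0.05 (POSTN), -0.26 (CLDN5) to 0.287 (KDR), 0.01 (CD3E) to 0.423 (CD3D) and -0.31 (CD68) to 0.331 (CD14). The median r with DLGAP5 was 0.612 for granulocyte, 0.408 for keratinocyte and -0.34 for mast cell markers, and with MPP4 it was 0.292, 0.196 and 0.05. Within these lists the highest r with DLGAP5 was that of S100A9 (0.743), DSG3 (0.508) and ENPP3 (-0.18), and with MPP4 that of CXCR2 (0.407), DSG3 (0.317) and MS4A2 (0.176). The lowest were CCR3 (-0.24), TP63 (0.282) and HPGDS (-0.475) with DLGAP5, and ELANE (-0.16), TP63 (-0.04) and MITF (-0.12) with MPP4. The part of these cells in the results was not tested.

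None of the genes passed a test on sex or age. Between 20 females and 11 males of the 33 tumors, 11 probes were called (0.0252%), none of them of the 5 genes. ARHGEF39 came closest, with a mean log2 level of 4.12 ± 0.63 (SD, n = 20) in females and 5.04 ± 0.59 (SD, n = 11) in males (limma p = 0.000316, adjusted p = 0.406), and the sexes overlapped from 4.08 to 5.09. DEPDC1 was at 3.59 ± 1.04 in females and 4.81 ± 1.40 in males (limma p = 0.00766, adjusted p = 0.999). With CCNB2 in the fit, female minus male went from -1.225 to -0.54 for DEPDC1 and from -0.70 to 0.06 for DLGAP5. For ARHGEF39 it went from -0.92 to -0.71 (limma adjusted p = 0.934), and none of the 5 genes was called. On age, limma called 0 probes (0%), against 954 at an unadjusted p under 0.05, and MPP4 changed by -0.09 per year (SE 0.093, adjusted p = 1). The slope on CCNB2 differed between the sexes for 0 probes by limma (0%), against 3495 at an unadjusted p under 0.05, and for the 5 genes the adjusted p-values of that difference were between 0.61 and 0.991.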

How the data were processed

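RNA of 51 canine MCTs, 1 tumor per array, was read with Agilent one-color arrays. From each scan the authors obtained a processed signal with Agilent Feature Extraction, deposited as an intensity after background subtraction. The authors also deposited their quantile-normalized values as linear intensities, which served as an alternative. Both the array's gene names and the probe coordinates are those of the scanner files.

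Here log2 values of the processed signal were quantile-normalized across all 51 arrays without the control spots. Feature outlier flags (2 to 35 spots per array) were treated as missing. Spots that the scanner software did not find were kept, whereas the authors' table leaves them blank. An array holds 45220 spots, control spots included. Replicate spots among those that are not controls were averaged to give 43603 probes. The tools were limma 3.58.1, statmod 1.5.0 and data.table (version 1.17.8) in R 4.3.3, and for figures matplotlib 3.10.9 and numpy 2.4.6 in Python 3.11.15. Symbols were the file's name where RefSeq (UU_Cfam_GSD_1.0) knows it (15476 probes), or came through the gene number (3356) or an older name (201), and 24570 probes stayed under the file's name.

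All 51 samples form 1 group, since the labels give no class. Each probe was fitted by limma on the CCNB2 level, on sex, on age and on sex with CCNB2. The fits used the 33 tumors outside the study's list, or the 31 of them with a sex and the 31 with an age. P-values were adjusted by Benjamini-Hochberg over 43600 probes, and probes were called at 0.01, the false discovery rate of the study's methods. Correlations used 100000 permutations, or all of them in 6 tumors. Nothing in the labels says which tumors share a dog's litter or clinic, and the p-values measure the spread between these tumors. The fit was tested on simulated data of the same size, in which 100 of 100 slopes of 1 and 78 of 100 slopes of 0.5 were recovered, with 1 unchanged probe called. The simulated probes varied independently of each other, with an SD of at most 1 before a slope was added. MPP4 had an SD of 1.52 over the 33 tumors, so these shares do not give the recovery for a probe as variable. Correlation between real probes was not simulated. The 5 genes and all gene lists were chosen with earlier results of these data known.

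Between 59.4% and 74.8% of the spots of an array were well above background, and at most 3 were saturated. The arrays came from 15 slides and 9 scan sessions. The number of arrays limits the precision. Named genes are the 5 genes and CCNB2, the 5 symbols closest to each in pattern, the highest and lowest r of each list with MPP4 and DLGAP5, the members of the small lists, and the neighbors on the chromosome with the highest r. Further probes, cell markers and tumors were named after their values were seen. Alternatives covered normalization, background correction, the authors' table, flagged and dim spots, slide, scan session, sex and age, other measures of proliferation, other sets of tumors and the threshold. Promoter and protein sequences were not used here, and some genes are not reported.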

Additional observations from a re-analysis of the deposited data

How the results depend on the processing

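The count of probes called on the CCNB2 level, 1189, stayed between 894 and 1525 under 13 alternatives. It was 2951 over all 51 tumors, 3724 at an adjusted p under 0.05, 522 with sex and age in the fit (30 tumors) and 367 with scan session as a fixed block. The calls of DLGAP5 and SHCBP1 held under all 17 alternatives and that of DEPDC1 under 16, since the filter on dim probes leaves it out. That of ARHGEF39 was lost with scan session (slope 0.37) and with sex and age (slope 0.26), and MPP4 was called only over all 51 tumors (slope 0.68, adjusted p = 0.000484), which include those that chose it. Its slope was 0.70 with the authors' table (adjusted p = 0.0223) and 0.39 with normexp (adjusted p = 0.14). Normexp lowered the slopes of DEPDC1, SHCBP1 probe a and ARHGEF39 to 0.34, 0.60 and 0.18. Without the tumors farthest from the median, the r of MPP4 with CCNB2 was 0.354, in tumors with its probe well above background 0.304 and within scan session 5 0.548, where the r of ARHGEF39 was 0.611. With the authors' table the r of MPP4 was higher, 0.573. The difference in r between DEPDC1 and MPP4 was 0.314 with the authors' table and 0.615 where both probes were well above background, an alternative chosen after seeing the data, as were background flags set to missing, the slopes without 2 tumors and normexp for the correlations. The difference from ARHGEF39 did not pass under any alternative. Between the sexes 25 probes were called over all 51 tumors against 11 in the 33. For all these changes the cause was not tested. No paired analysis was possible because all samples form 1 group. DEPDC1 is limited by its signal, which was well above background in 11 of the 33 tumors. No result of the 5 genes that passed in the main setting changed sign under an alternative. Some that did not pass changed sign. For example, the age slope of MPP4 went from -0.09 to 0.02 over all 51 tumors. With CCNB2 in the fit, the age slope of DEPDC1 went from 0.07 to -0.004. Female minus male for DLGAP5 then went from -0.70 to 0.06.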
